A study of Mus musculus with 2 samples.

Results

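The 10 immediate early genes Fos, Fosb, Jun, Junb, Jund, Egr1, Atf3, Ier2, Ier3 and Btg2 were described by marker-gated cell type and library in adult mouse cochlear explants. The genes were taken by symbol, and all 10 of the 10 symbols were found among the 31053 genes of the deposited matrices. Cochleae came from C57BL/6J mice of 4 to 6 weeks. One group of explants was held for 4 days in a reprogramming cocktail of valproic acid (1.5 mM), lithium chloride (8 mM), forskolin (20 µM) and siRNAs against FIR and Mxi1 (0.02 µM each). The other group was held for 4 days in the vehicle, sterile water with 0.1% DMSO. Both groups then received ad.Atoh1, an adenovirus that carries the hair cell transcription factor Atoh1, for 2 weeks, so that no group without the virus was compared. The labels say that 5 cultures went into each library, cells were not assigned to cultures here, and they were released with 0.25% trypsin for 15 min at 37 °C. There was 1 droplet library per group. No test between conditions was possible, no p-value is given, and intervals are 95% and cover counting error only.

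Immediate early genes are transcribed within minutes of a stimulus from factors already present in the cell, such as serum response factor and CREB, and need no new protein to be made. Fos and Fosb proteins pair with Jun, Junb or Jund in the AP-1 dimer, Egr1 is a zinc finger transcription factor, and Atf3 is a stress-induced factor of the wider AP-1 family. Ier2 and Ier3 encode short-lived response proteins, and Btg2 encodes an antiproliferative adaptor of mRNA deadenylation. Enzymatic release of cells from tissue is known to induce this group, so that its level in a cell suspension is widely read as a sign of dissociation stress. Growth factors, injury and cAMP-raising agents such as forskolin induce the same genes. These sources cannot be told apart here, because every cell of both libraries went through the same digestion.

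CREB binds the sequence TGACGTCA or its shorter form TGACGT, and the windows that held the shorter form are shown because forskolin was in the cocktail. RefSeq promoter windows (GRCm38.p6) were at hand for 8 of the 10 genes. In the 250 bases before the start, searched on both strands, TGACGT was found for 3 of the 8 genes, against 6.47% of all 32851 windows of that length. The full TGACGTCA was found for 1 of the 8, against 1.55% of all windows, and it holds TGACGT on each strand. The AP-1 sequence TGANTCA and the CArG box of serum response factor were in none of the 8 windows, against 6.75% and 1.47% of all windows. None of 8 is near those shares. Bases further upstream were not searched and variants of these sequences were not counted, so sites can be missed. The Jund window ends at base 70697738, while the gene record of Jund begins at 70698949. Capitals mark the match. The Fos window is chr12:85473640-85473889 on the plus strand, and its match begins 66 bases before the start. The Atf3 window is chr1:191183334-191183583 on the minus strand, with the match 8 bases before the start. The Btg2 window is chr1:134079156-134079405 on the minus strand, with the match 166 bases before the start.
Fos: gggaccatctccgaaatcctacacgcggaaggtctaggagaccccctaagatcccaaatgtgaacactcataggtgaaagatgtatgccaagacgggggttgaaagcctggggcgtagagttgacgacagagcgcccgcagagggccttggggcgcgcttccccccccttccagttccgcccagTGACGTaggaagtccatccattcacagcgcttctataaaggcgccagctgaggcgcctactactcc
Atf3: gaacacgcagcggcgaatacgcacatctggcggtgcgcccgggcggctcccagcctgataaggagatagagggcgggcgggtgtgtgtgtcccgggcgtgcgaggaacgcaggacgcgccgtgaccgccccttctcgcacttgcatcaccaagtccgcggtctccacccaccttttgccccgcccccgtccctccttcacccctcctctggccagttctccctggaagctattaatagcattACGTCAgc
Btg2: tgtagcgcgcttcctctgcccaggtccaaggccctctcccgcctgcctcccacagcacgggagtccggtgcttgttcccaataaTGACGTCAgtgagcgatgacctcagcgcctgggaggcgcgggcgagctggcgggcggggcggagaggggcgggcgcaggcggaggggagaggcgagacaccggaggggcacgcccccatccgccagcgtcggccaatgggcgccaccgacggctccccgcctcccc
A match is a description of these letters and not a measured binding site.

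After removal of barcodes under 500 UMIs (unique transcript molecules), under 300 genes or over 20% mitochondrial UMIs, 1329 of 1403 cocktail and 1584 of 1688 vehicle barcodes remained as cells, where the labels state about 1400 and 1700 cells. They held 19531019 and 23017362 UMIs, with a median of 10391 and 12267 UMIs per cell and a median mitochondrial share of 1.27% and 1.56%. No barcode was shared between the libraries (0 in both). The 10 genes together took 68187 of the cocktail UMIs (0.349%) and 76271 of the vehicle UMIs (0.331%). Levels are UMIs per 1000000 UMIs (CPM), and 3 UMIs, the upper limit for a gene with no UMI, correspond to 0.154 CPM with cocktail and 0.130 CPM with vehicle.

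Over all kept cells the 10 genes stood at nearly the same level in both libraries. The sum was 3491 CPM with cocktail and 3314 CPM with vehicle, a log2 ratio of 0.08 (0.06 to 0.09). A mean over cells, which gives shallow cells the same weight as deep ones, put the ratio at -0.07. No gene of the 10 lay past 1.5-fold in either direction (0 higher, 0 lower). Over the 17260 genes with at least 20 UMIs, 7.81% lay past 1.5-fold higher and 10.6% lower, with a median log2 ratio of -0.03. Over the 13819 genes with at least 100 UMIs the shares were 5.17% and 7.33%. The 0 of 10 is thus near the background.

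Among the Fos family genes, Fos was at 550.5 CPM with cocktail and 618.8 CPM with vehicle, a log2 ratio of -0.17 (-0.21 to -0.13). Fosb was at 190.8 and 167.6 CPM, a ratio of 0.19 (0.12 to 0.25). With gates weighted alike the Fos ratio was -0.0017, and with depth quartiles weighted alike 0.03. Jun was at 569.5 and 515.4 CPM (0.14, 0.11 to 0.18), Junb at 358.4 and 322.0 CPM (0.15, 0.11 to 0.20), and Jund, the Jun family member with the most constant expression, at 450.1 and 432.3 CPM (0.06, 0.02 to 0.10). On summed UMIs the 3 Jun genes were higher in the cocktail library by less than 1.2-fold. As a mean over cells, Jun was at -0.05 and Jund at -0.13, and Jund was at -0.15 with depth quartiles weighted alike. They overlap other genes in the files (Jun with Junos, Junb with Prdx2, Jund with Gm11175), and whether the counting used strand is not given in the sources used here. Junos held 227 and 240 UMIs and Gm11175 held 3 and 2 UMIs, while Prdx2, which encodes an abundant peroxiredoxin, held 10079 and 11391 UMIs, so the Junb counts are the least certain of the 3.

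Egr1 was at 528.9 CPM with cocktail and 463.9 CPM with vehicle (0.19, 0.15 to 0.23), and Ier2 at 215.9 and 202.0 CPM (0.10, 0.04 to 0.16). Ier3, which modulates NF-κB and ERK signalling and cell survival, was at 282.8 and 210.2 CPM, with a log2 ratio of 0.43 (0.37 to 0.48) that was the highest of the 10. Ier3 passed 1.5-fold (0.64) only where the 4 depth quartiles were weighted alike. Btg2 was at 142.7 and 179.0 CPM, with a ratio of -0.33 (-0.40 to -0.26) that was the lowest. Atf3 was at 201.8 and 202.4 CPM (0.00, -0.07 to 0.06).

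Cell groups were formed from marker genes without use of the 10 genes. A cell was placed in a gate when its UMIs of one marker list, relative to the mean of that list over cells, were at least 1 and at least 2 times those of the next list, with at least 3 UMIs from at least 2 markers. The gates called interdental-like (Ceacam16, Otoa, Otogl, Otog), glia-like, fibroblast-like, hair cell-like, supporting cell-like, osteoblast-like, endothelial-like and neuron-like rest on at least 4 detected markers each. The Otor (Otor, Coch, Pou3f4, Emcn), Tecta/Vmo1, C3/Cd74, Gal/Cck and Opcml/Mfap4 gates are named by their genes alone. Between 0 and 38 cells of a gate lay near its threshold. Marker lists of another class were above 0 in the median cell of most gates. They included fibroblast markers at 6365 CPM in the osteoblast-like gate, supporting cell markers at 2710 CPM in the C3/Cd74 gate, Gal and Cck at 3512 CPM in the Opcml/Mfap4 gate, and fibroblast markers at 777 CPM in the Otor gate. Cells with 2 competing lists were set apart as mixed (94 cocktail, 151 vehicle), and no doublet caller was run. Of the rest, 170 and 255 cells with epithelial markers and 287 and 269 others fell in no gate.

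The summed level of the 10 genes differed several-fold between gates, and the same gates stood at both ends in both libraries. Interdental-like cells, which lie medial to the organ of Corti and secrete tectorial membrane proteins, had the highest level of the gates with at least 20 cells, 7937 CPM (7821 to 8054, 138 cells) in the cocktail and 6814 CPM (6673 to 6957, 92 cells) in the vehicle library. Opcml/Mfap4 cells had the lowest, 1194 CPM (1128 to 1263, 38 cells) and 1265 CPM (1218 to 1313, 103 cells). The level was thus 6.65 times as high in interdental-like as in Opcml/Mfap4 cells in the cocktail and 5.39 times in the vehicle library. These ends of the order were the same with a stricter gate, a looser gate, clusters merged by marker list and the median over cells. Single clusters went lower than cluster 6, the larger of the Opcml/Mfap4 clusters, at 1132 and 1170 CPM. Gal/Cck cells of cluster 0 (133 and 88 cells) stood at 993 and 983 CPM. Cluster 9, which matched no list (67 and 59 cells), stood at 571 and 852 CPM. Merged macrophage clusters, at 1207 and 1433 CPM, were close to merged Opcml/Mfap4 clusters, at 1166 and 1413 CPM.

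**Figure D1:**
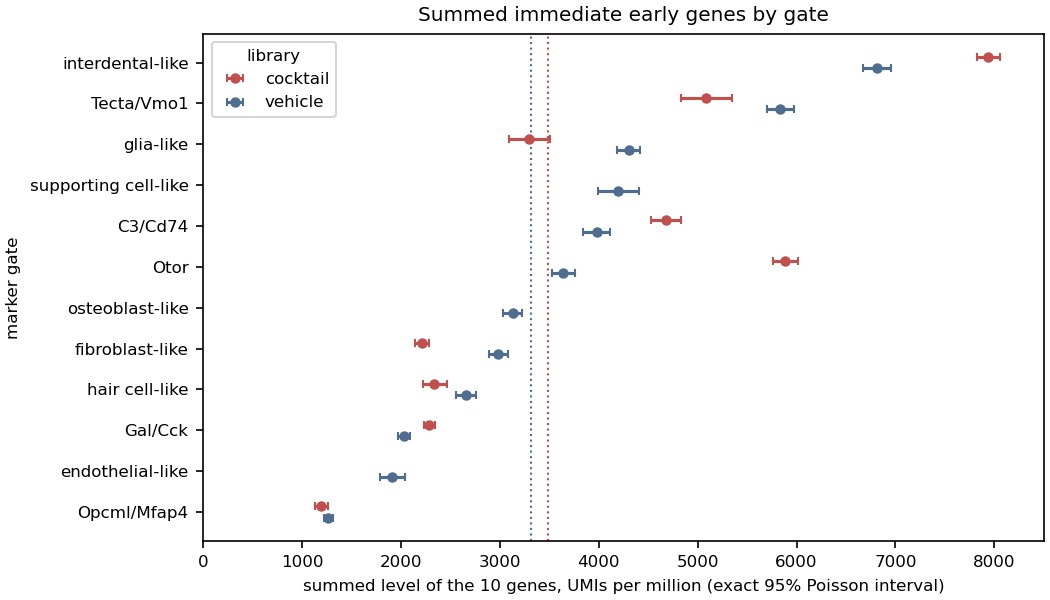
Summed level of the 10 immediate early genes (CPM, horizontal axis) by marker gate (vertical axis) and library, for gates with at least 20 cells. Bars are exact 95% Poisson intervals and dotted lines the mean of each library. Interdental-like cells are highest at 7937 and 6814, and Opcml/Mfap4 cells lowest at 1194 and 1265.

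In the vehicle library the Tecta/Vmo1 gate came next at 5836 CPM (63 cells), followed by glia-like cells at 4302 CPM (144 cells), supporting cell-like cells at 4195 CPM (20 cells) and the C3/Cd74 gate at 3980 CPM (36 cells). The counting intervals of the glia-like and supporting cell-like gates overlapped (4185 to 4420 and 3992 to 4406 CPM), as did those of the supporting cell-like and C3/Cd74 gates. The Otor gate stood at 3643 CPM (58 cells), osteoblast-like cells at 3129 CPM (47 cells) and fibroblast-like cells at 2985 CPM (65 cells). Hair cell-like cells, the cells the Atoh1 virus is meant to produce, stood at 2656 CPM (57 cells), below the library mean. The Gal/Cck gate at 2032 CPM (163 cells) and endothelial-like cells at 1912 CPM (27 cells) overlapped within their intervals.

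In the cocktail library the Otor gate was second at 5887 CPM (93 cells), ahead of Tecta/Vmo1 at 5085 CPM (24 cells) and C3/Cd74 at 4677 CPM (36 cells). Glia-like cells stood at 3299 CPM (39 cells). Hair cell-like cells (2338 CPM, 27 cells), the Gal/Cck gate (2288 CPM, 259 cells) and fibroblast-like cells (2214 CPM, 79 cells) had overlapping or touching intervals. Interdental-like cells made up 10.4% of cocktail and 5.81% of vehicle cells and held 26.2% and 11.7% of the UMIs of the 10 genes.

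Depth and mitochondrial share are given beside these levels for the gates at both ends. Interdental-like cells had a median of 17174 and 13366 UMIs and 1.51% and 1.82% mitochondrial UMIs, and Opcml/Mfap4 cells 26256 and 20963 UMIs and 2.24% and 2.41%. Hair cell-like cells had the highest mitochondrial medians of these gates, 2.55% and 2.98%. The part of RNA quality in the gate levels was not tested. Gal and Cck in fibroblast-like cells were taken as a gauge of free RNA. They stood at 1.40% and 2.68% of their library mean, and the 10 genes in the same cells at 63.4% and 90.1% of theirs. Gal and Cck are also a gate list, and cells with a competing list were set apart, so the gauge can read too low. In the Opcml/Mfap4 gate, whose cells carry Gal and Cck, free RNA was not gauged.

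**Figure D2:**
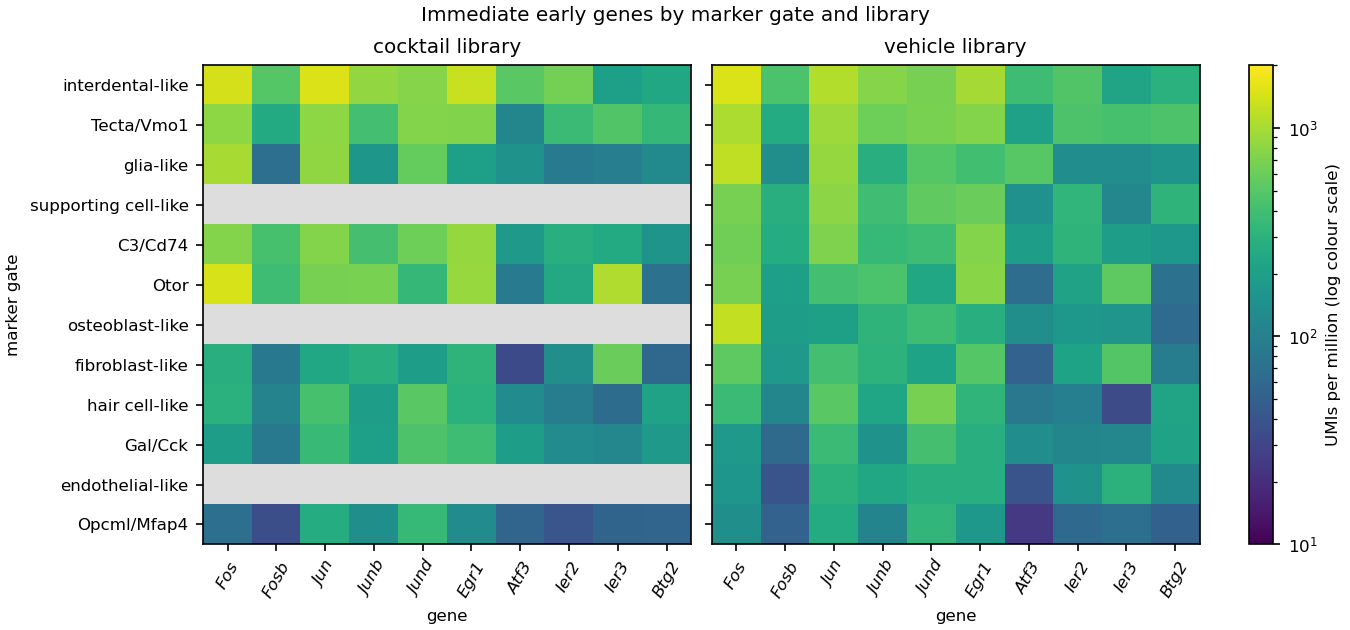
Level of each of the 10 genes (columns) in each marker gate (rows) in the cocktail and the vehicle library, in CPM on a logarithmic colour scale. Grey rows are gates with fewer than 20 cells. The interdental-like row is bright for all genes but Ier3, which is brightest in the Otor and fibroblast-like rows.

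Within the interdental-like gate, 9 of the 10 genes were more than 1.5-fold above all other cells of the same library, in each of the libraries. Over all genes tested, 11.7% passed that fold with cocktail and 15.7% with vehicle. The gate was picked as the highest by the sum of these same genes, so the count is only a description. Ier2 had the largest log2 difference in the cocktail library, 2.05 (1.960 to 2.144), at 657.2 CPM against 158.5 CPM elsewhere. Fosb had the largest in the vehicle library, 1.55 (1.42 to 1.68), at 443.2 against 151.0 CPM. Jund was at 0.90 and 0.68 and Btg2 at 0.86 and 0.78, nearer to the other cells than the rest. Ier3 was the exception. It was at 198.8 CPM against 293.7 CPM elsewhere in the cocktail library (-0.56, -0.71 to -0.42), and at 222.4 against 209.4 CPM in the vehicle library (0.09, -0.09 to 0.26).

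The genes did not share 1 order of gates. Fos was highest in the Otor gate (1461 CPM) and in interdental-like cells (1412 CPM) of the cocktail library, whose intervals overlapped, and in interdental-like cells (1493 CPM) of the vehicle library. It was lowest in Opcml/Mfap4 cells, at 69.4 and 138.8 CPM, which is 21.0-fold and 10.8-fold below. Osteoblast-like cells (47 in the vehicle and 3 in the cocktail library) had in the vehicle library 1221 CPM of Fos, the second highest, beside 205.0 CPM of Jun, the lowest Jun level of the vehicle gates with at least 20 cells. Glia-like cells, the Schwann and satellite glia of the nerve, also had high Fos (996.2 and 1195 CPM) and high Jun (837.9 and 868.1 CPM), while their Fosb was low (69.3 and 137.1 CPM). Jun is a known regulator of the Schwann cell response to nerve injury.

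Jun, Junb and Egr1 were highest in interdental-like cells in both libraries, with Jun at 1526 and 1092 CPM, Junb at 842.6 and 762.6 CPM and Egr1 at 1288 and 978.1 CPM. Jund had the narrowest range, 3.95-fold in the cocktail and 3.2-fold in the vehicle library, with its highest levels in interdental-like and Tecta/Vmo1 cells (765.2 and 755.7 CPM in the cocktail library), whose intervals overlapped. It was lowest in fibroblast-like cells, at 193.7 and 216.3 CPM. Hair cell-like cells, low for the sum, had 514.0 and 668.9 CPM of Jund, in the vehicle library close to the 692.0 CPM of the Tecta/Vmo1 gate, which was the highest.

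Ier3 had the order most unlike the sum. Its highest level was in the Otor gate, 1055 CPM with cocktail and 539.3 CPM with vehicle, followed by fibroblast-like cells at 594.5 and 487.8 CPM. In the vehicle library those intervals overlapped. Ier3 was lowest in Opcml/Mfap4 cells (55.5 CPM) of the cocktail and in hair cell-like cells (34.5 CPM) of the vehicle library. Btg2 was highest in the Tecta/Vmo1 gate in both libraries (341.3 and 458.1 CPM) and lowest in Opcml/Mfap4 cells (56.5 and 51.6 CPM). Ier2 was highest in interdental-like cells (657.2 and 470.0 CPM), in the vehicle library with an interval that overlapped that of the Tecta/Vmo1 gate (459.8 CPM).

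Atf3, which marks injured neurons and Schwann cells in peripheral nerve, had a pattern of its own. Among gates with at least 20 cells it was highest in interdental-like cells of the cocktail library (516.7 CPM) and in glia-like cells of the vehicle library (510.1 CPM). The neuron-like gate, with 11 cocktail and 17 vehicle cells, had 956.0 and 993.8 CPM. There Atf3 was detected in 11 of 11 and 15 of 17 cells, with a lowest, median and highest cell of 38.7, 719 and 2191 CPM in the cocktail and 0, 976 and 1891 CPM in the vehicle library. These neuron-like cells were 0.828% and 1.07% of the cells and 2.43% and 3.54% of all UMIs, and held 11.5% and 17.4% of the Atf3 UMIs. Their Fos was low, at 136.9 and 73.7 CPM. Neuron-like cells were too few for a place in the order of gates.

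Within gates, cocktail and vehicle differed more than over all cells, and in both directions. Of the 9 marker gates with at least 20 cells in each library, the summed ratio was above 0 in the Otor, C3/Cd74, interdental-like and Gal/Cck gates (0.69, 0.23, 0.22 and 0.17). It was below 0 in fibroblast-like, glia-like, Tecta/Vmo1 and hair cell-like cells (-0.43, -0.38, -0.20 and -0.18), and -0.08 (-0.18 to 0.01) in Opcml/Mfap4 cells. With clusters in place of gates the Gal/Cck and C3/Cd74 ratios changed sign (-0.11 and -0.14), and with depth quartiles weighted alike the Opcml/Mfap4 ratio did (0.12). That weighting, added after the data were seen, put fibroblast-like cells at -0.90, glia-like cells at -0.88 and the Tecta/Vmo1 gate at -0.75. For each gene, the count of the highest cell of each library was also set to 0, with the total UMIs of that cell kept. The Tecta/Vmo1 ratio was then -0.55, the hair cell-like ratio -0.36 and the Opcml/Mfap4 ratio -0.22. That step took a larger share from the cocktail library in these gates, which had fewer cells there. The interdental-like gate, with more cocktail cells, went to 0.27. For Tecta/Vmo1 the ratio was -0.08 with a stricter gate and -0.13 with clusters. A stricter gate put hair cell-like cells at -0.52 and the Gal/Cck gate at 0.31. The cells in no gate were lower in the cocktail library, at -0.38 with epithelial markers and -0.45 without.

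**Figure D3:**
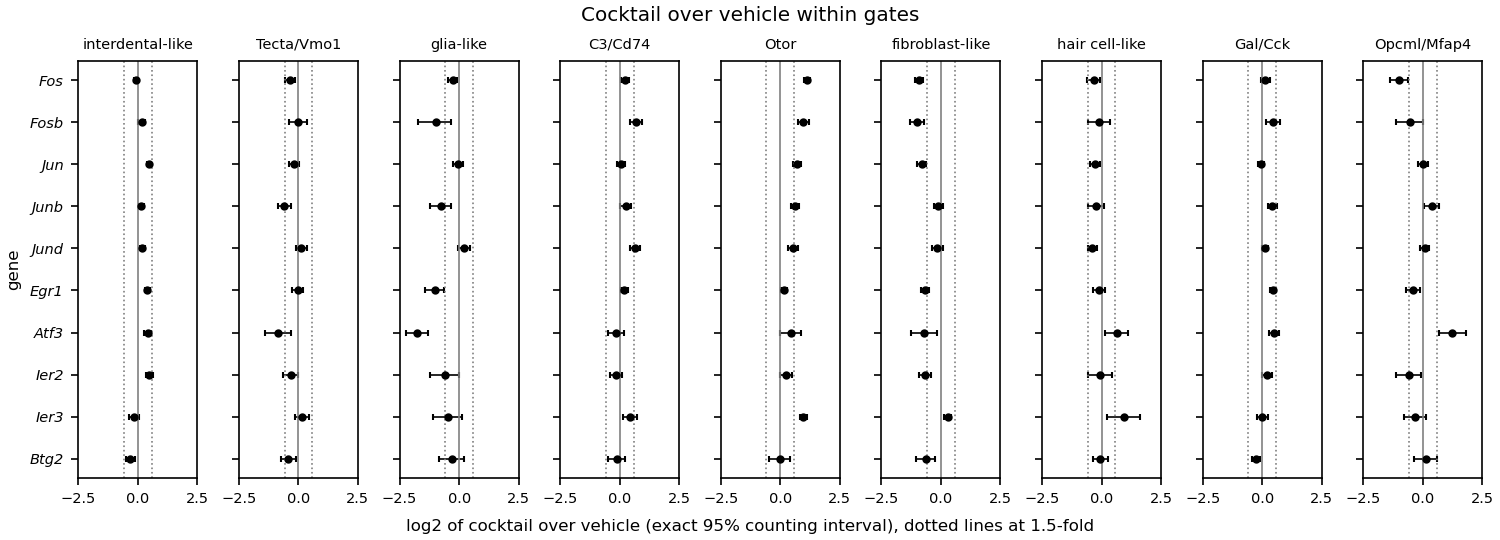
Log2 ratio of cocktail over vehicle (horizontal axis) for each of the 10 genes (vertical axis) in the 9 gates with at least 20 cells in each library. Bars are exact 95% counting intervals, and dotted lines mark 1.5-fold. In the Otor panel 5 genes lie past the right dotted line, and in the fibroblast-like panel 7 lie past the left one.

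The Otor gate, whose markers are known from mesenchyme of the spiral ligament and limbus, had the largest ratio. The sum was 5887 CPM with cocktail and 3643 CPM with vehicle (0.69, 0.64 to 0.75). There 5 of the 10 genes lay past 1.5-fold higher, against 10% higher of the 9966 genes tested there. The gate stands out by the summed ratio of these same genes, so that count is only a description. Fos was at 1461 and 678.9 CPM (1.11, 0.98 to 1.23), Ier3 at 1055 and 539.3 CPM (0.97, 0.83 to 1.11) and Fosb at 382.8 and 197.4 CPM (0.96, 0.72 to 1.19). Jun was at 0.71 and Junb at 0.62, while Egr1 was at 0.17 and Btg2 at -0.03.

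The gate did not hold the same cells in both libraries. Clusters drawn without the 10 genes put 62 of the 93 cocktail cells in cluster 10 and 29 of the 58 vehicle cells in cluster 12. Within cluster 10 the summed ratio of Otor cells was 0.58 (9303 CPM in 62 cells against 6226 CPM in 13 cells). Within cluster 12 it was -0.22 (3606 CPM in 15 cells against 4200 CPM in 29 cells). The ratio was 0.42 over all clusters named by the Otor markers, 0.47 with a looser gate and 0.54 with depth quartiles weighted alike. What sets these clusters apart was not tested.

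In fibroblast-like cells the sum was 2214 CPM with cocktail and 2985 CPM with vehicle (-0.43, -0.50 to -0.37). There 7 of the 10 genes lay past 1.5-fold lower, against 13.5% lower of 10060 genes tested. This gate had the lowest summed ratio of the gates compared, so a count over the same genes is only a description. Fosb was at 85.5 and 172.1 CPM (-1.01), Fos at 282.1 and 534.4 CPM (-0.92), Jun at 235.6 and 411.2 CPM (-0.80) and Egr1 at 310.6 and 496.5 CPM (-0.68). Ier3 went the other way, at 594.5 and 487.8 CPM (0.29, 0.14 to 0.43). In cluster 1, which held 35 cocktail and 33 vehicle cells of this gate, the summed ratio was -0.20 (-0.28 to -0.12), and with a stricter gate it was also -0.20. Of the cocktail cells, 23 lay in cluster 14 with a median of 1222 UMIs, against 1 of the vehicle cells.

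In glia-like cells the sum was 3299 and 4302 CPM (-0.38, -0.48 to -0.28). There 4 of the 10 genes lay past 1.5-fold lower, against 16% lower of 8085 genes tested. The summed ratio was the next lowest of the gates compared, so this count is likewise only a description. Atf3 was at 151.7 and 510.1 CPM, the largest ratio of any of the 10 genes in any of the 9 gates (-1.75, -2.21 to -1.32). It was seen in 10 of 39 cocktail and 75 of 144 vehicle cells. The median cell stood at 0 and 62.3 CPM and the highest at 842 and 4277 CPM. Egr1 was at 197.9 and 400.4 CPM (-1.02), Fosb at 69.3 and 137.1 CPM (-0.98) and Junb at 164.9 and 279.1 CPM (-0.76). Fos (-0.26), Jun (-0.05) and Jund (0.22) were nearer to each other in the 2 libraries. Cluster 8 held 29 of the 39 cocktail and 103 of the 144 vehicle cells, and the summed ratio within it was -0.62 (-0.73 to -0.50).

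In interdental-like cells, where the 10 genes were highest, none lay past 1.5-fold higher or lower between the libraries (0 and 0), beside 6.69% higher and 14.5% lower of 10346 genes tested, so that 0 of 10 is near the background. Ier2 (0.48, 0.35 to 0.62), Jun (0.48, 0.39 to 0.57), Atf3 (0.42, 0.27 to 0.57) and Egr1 (0.40, 0.30 to 0.49) were higher in the cocktail library, and Btg2 was lower (-0.31, -0.50 to -0.12). Fos was at -0.08 (-0.16 to 0.00). In cluster 2, which held 75 of the cocktail and 41 of the vehicle cells of this gate, the sum was 9689 and 9250 CPM, a ratio of 0.07. Levels differed between clusters of the gate. Cluster 18 stood at 3742 and 3847 CPM (25 and 14 cells), and 14 vehicle cells of cluster 24 at 3704 CPM. Cocktail cells of clusters 5 and 23 stood between, at 5222 and 6329 CPM (20 and 15 cells). In the Opcml/Mfap4 gate, the lowest, Atf3 was at 56.5 and 24.0 CPM (1.24, 0.67 to 1.81) on 57 and 53 UMIs, and Fos at 69.4 and 138.8 CPM (-1.0, -1.40 to -0.62).

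The 10 genes were spread very unevenly among cells. They took a median of 0.174% of a cell's UMIs with cocktail and 0.234% with vehicle, a 90th percentile of 0.845% and 0.763%, and a maximum of 2.35% and 2.90%. At least 1% of UMIs was reached by 96 cocktail cells (7.22%) and 86 vehicle cells (5.43%). Interdental-like cells supplied 40 and 18 of these, and Otor cells 33 and 3. No Opcml/Mfap4 cell reached 1% (0 in each library). Only 1 of 259 cocktail and 0 of 163 vehicle Gal/Cck cells did.

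**Figure D4:**
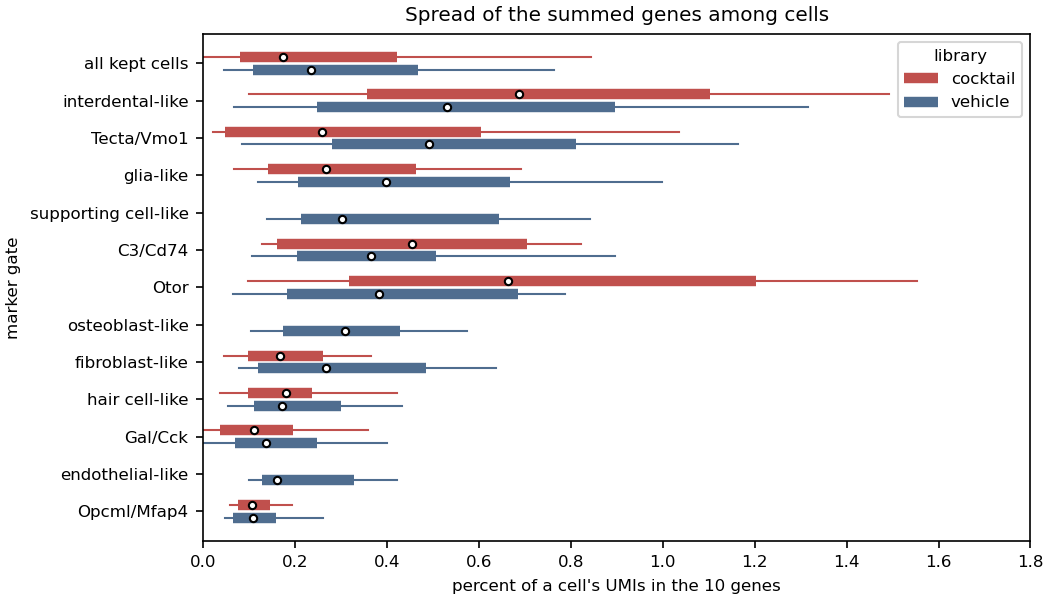
Percent of a cell's UMIs in the 10 genes (horizontal axis) by gate and library. Thin lines run from the 10th to the 90th percentile of cells, thick bars from the lower to the upper quartile, and white points mark the median. The median is 0.686 and 0.531 in interdental-like cells and 0.106 and 0.109 in Opcml/Mfap4 cells.

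Within gates the spread stayed wide. In interdental-like cells the quartiles were 0.356% and 1.10% in the cocktail and 0.248% and 0.895% in the vehicle library, and some cells had no UMI of the 10 genes. In Opcml/Mfap4 cells the quartiles were 0.0765% and 0.146%, and 0.0655% and 0.159%. After each cell was thinned to 1000 UMIs, which left out 172 cocktail and 94 vehicle cells, at least 1 UMI of the 10 genes was seen in 74.9% (72.3 to 77.4) of cocktail and 80.3% (78.2 to 82.3) of vehicle cells. Unthinned, the shares were 88.8% and 95.3%. At least 5 of the 10 genes were seen in 16.4% and 14.2% of thinned cells. That share was 45.7% and 37.0% in interdental-like, 49.5% and 17.2% in Otor and 5.26% and 0.971% in Opcml/Mfap4 cells. No gate lacks these genes, so no gate gives a background. Fos was seen in 5.26% and 15.5% of thinned Opcml/Mfap4 cells and in 64.5% and 60.9% of thinned interdental-like cells. These gates were picked as lowest and highest by the same genes, so their contrast is only a description.

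The variance of the thinned sum was 5.35 times its mean in the cocktail and 4.34 times in the vehicle library, where counting alone gives 1. Fos had the largest such ratio of the single genes (2.98 and 2.35), Jund was at 1.37 and 1.37, and Btg2 at 1.19 and 1.63. The ratio rises with the level of a gene, so it does not rank the genes by spread alone. The highest 10% of cells by Atf3 held 69.7% and 66.2% of its UMIs, the most uneven of the 10, and by Jund 45.0% and 37.5%, the least. The highest single cell held at most 3.07% of the UMIs of a gene (121 UMIs of Atf3 in a cocktail cell).

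Cells high in one of the genes tended to be high in others. Over cells thinned to 10000 UMIs, the correlation within gate and library was averaged over 12 groups with at least 40 such cells, as a description without a test, since cells of 1 library share its preparation. The closest pairs were Fos with Fosb (mean Pearson r 0.58, range 0.38 to 0.78), Fos with Egr1 (0.56) and Fos with Junb (0.56). The loosest was Jund with Ier3 (0.13, -0.20 to 0.40). Averaged over the other members, r was 0.43 for Fos and 0.40 for Egr1, and 0.23 for Jund, 0.24 for Btg2 and 0.27 for Ier3. Interdental-like cells had the highest mean r (0.48 and 0.51) and Opcml/Mfap4 cells the lowest (0.14, vehicle library). Those gates also had the highest and lowest level, and counting error lowers r where UMIs are few. Fibroblast-like cells differed between libraries, at 0.16 with cocktail and 0.34 with vehicle.

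Levels moved with depth in opposite ways in different gates. In Otor cells the sum went over depth quartiles from 12132 to 2821 CPM in the cocktail and from 7025 to 1887 CPM in the vehicle library. In Gal/Cck cells it went from 828 to 2394 CPM in the cocktail and from 1260 to 1929 CPM in the vehicle library. In fibroblast-like cells the lowest quartile was at 991 CPM in the cocktail, at a median of 1194 UMIs, and at 4766 CPM in the vehicle library, at a median of 4761 UMIs. In interdental-like cells the lowest quartile had the lowest level in both libraries (3870 and 5178 CPM). Over quartiles of mitochondrial share, interdental-like vehicle cells went from 7772 to 5360 CPM and Tecta/Vmo1 vehicle cells from 3622 to 7173 CPM. The part of depth and mitochondrial share in the differences between gates and libraries was not tested.

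**Figure D5:**
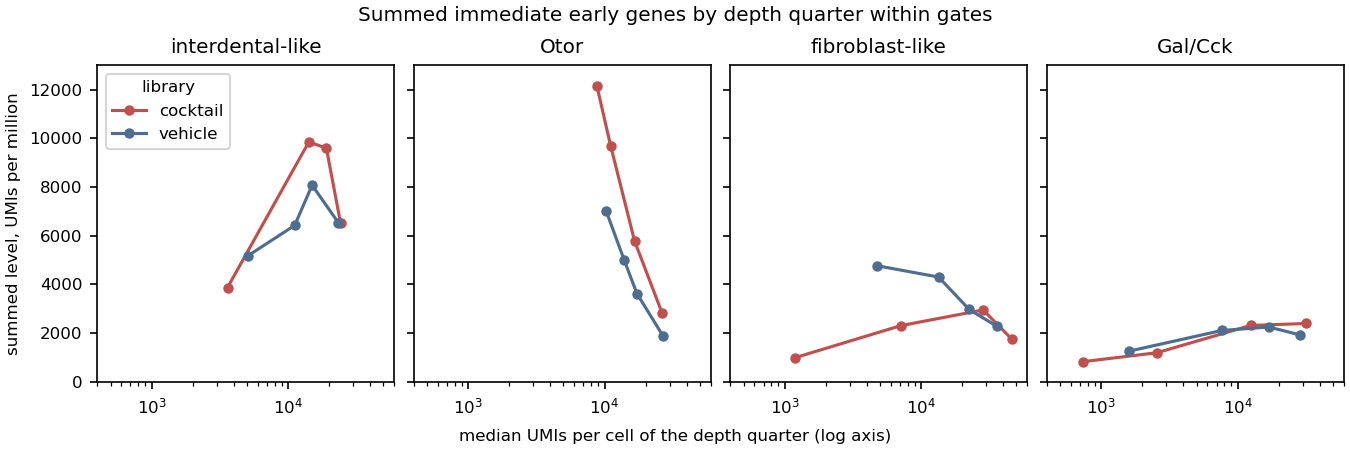
Summed level of the 10 genes (CPM, vertical axis) in 4 depth quartiles against the median UMIs per cell of the quartile (log axis), for 4 gates in both libraries. Otor cells go from 12132 to 2821 and from 7025 to 1887, and Gal/Cck cells reach at most 2394.

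Other genes of the early response were counted from lists, beside 7.81% of all genes tested past 1.5-fold higher and 10.6% lower in the cocktail library. Of 15 other early transcription factors, 0 lay past 1.5-fold between libraries (median log2 ratio 0.04), with Cebpb at 0.27 and Klf6 at 0.27 the highest and Nr4a2 at -0.36 and Klf2 at -0.34 the lowest by the interval bound nearest 0. Of 22 genes listed as feedback inhibitors, 0 were past 1.5-fold higher and 1 lower (median -0.04). The lower one was Dusp2, a MAP kinase phosphatase, at 10.5 and 16.7 CPM (-0.66). Not every gene of that list is an inhibitor. Of 8 AP-1 partners outside the 10 genes, 1 was higher, Fosl1, at 35.8 and 19.1 CPM (0.91, 0.74 to 1.09). Of 16 kinases and factors that act as inputs, 1 was higher, Map2k1, the ERK kinase, at 279.4 and 170.6 CPM (0.71). Of 11 secreted early genes with enough UMIs, 3 were higher and 2 lower, with the chemokine Ccl2 at 275.2 and 92.7 CPM (1.57) and the EGF family ligand Areg at 1.33 and 4.47 CPM (-1.75) the furthest out. The secreted list thus had genes past 1.5-fold on both sides.

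The heat shock genes, a list also used as a sign of dissociation stress, summed to 7129 CPM with cocktail and 6945 CPM with vehicle. Of these, 1 of 12 lay past 1.5-fold higher, Hspb1 at 832.1 and 543.6 CPM (0.61). Over both libraries the sum was 6333 CPM in interdental-like and 7663 CPM in Opcml/Mfap4 cells. Abundant chaperones such as Hsp90ab1 (2000 and 3010 CPM) carried that order, while 7 of the 12 genes were higher in interdental-like cells, among them Hspa1a (38.8 and 7.14 CPM) and Dnajb1 (116.9 and 50.3 CPM). Past 1.5-fold higher in interdental-like than in Opcml/Mfap4 cells were 4 of 12 heat shock genes, beside 26.4% of 17260 genes tested. Other early transcription factors were at 1429 and 644 CPM in the same gates, with 11 of 15 past 1.5-fold higher. The feedback inhibitor list was at 2138 and 1434 CPM, with 12 of 22 past that fold. Over cells within gates, the median r with the 10 genes was 0.20 for other early transcription factors and 0.17 for the feedback inhibitor list. It was 0.00 for heat shock genes and 0.01 for all 8986 genes ranked.

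The genes whose level over cells was most like the sum of the 10, by mean r within 12 gate and library groups (799 cells), were Nfkbia (0.39), Zfp36 (0.37), Ddx5 (0.36), Pnrc1 (0.35), Klf6 (0.33), Dusp1 (0.33), Nr4a1 (0.33) and Ccnl1 (0.32). The ranges over groups were wide, for Nfkbia from 0.10 to 0.82. Nfkbia inhibits NF-κB, Zfp36 destabilises short-lived mRNAs and Dusp1 dephosphorylates MAP kinases. Over the levels of 12 gate and library groups, the genes most like the sum by Pearson r of log2(CPM + 10) were Rab9 (0.94), Lrp10 (0.94), Zfp36 (0.93), Lamp2 (0.92), Smpd1 (0.91), Msrb1 (0.91), Gpr108 (0.90) and Lamtor4 (0.90). Only Zfp36 was on both lists. These r were the highest of 8986, and groups of 1 library share its preparation. Among the 10 genes themselves, r with the sum of the others over these groups ran from 0.95 for Fosb and 0.94 for Junb to 0.41 for Jund and 0.30 for Ier3.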

How the data were processed

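Raw UMI counts per gene and barcode were deposited by the authors. They were made with Cell Ranger 5.0.0 per the file headers. Per the submitters' processing notes, the tools and builds were Cell Ranger 5.0, STAR, Seurat 3.2.2, mm10 and GRCm38, with no role stated. Counts were summed over cells of a library or gate and scaled to 1000000 UMIs. Poisson, Clopper-Pearson and conditional binomial intervals (95%) cover counting error only. The 2 libraries, 1 per group, allowed no test.

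The 10 genes, lists and gates were chosen with earlier results of these data known, and the gate thresholds after marker levels were seen. Some markers are not reported here. All 10 genes were named. From the lists, genes with at least 20 UMIs were counted and the 2 highest and 2 lowest by ratio could be named. The 8 genes most like the sum were named over gates and over cells.

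Clusters came from 2000 variable genes without the 10, with 30 components, 15 neighbours and Leiden resolution 1. Thinning drew 1000, 5000 or 10000 UMIs per cell (seed 1). The ratio, interval and thinning steps were tested on simulated data. Alternatives changed scaling, filters, gates, thinning and depth weights. Python 3.11.15, numpy 2.4.6, scipy 1.17.1 and leidenalg 0.10.2 were used.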

Additional observations from a re-analysis of the deposited data

Results flagged for a closer look

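The summed level of the 10 genes was higher in the cocktail library in the Otor gate (log2 ratio 0.69) and lower in fibroblast-like cells (-0.43), a gap of 1.12 between 2 gates of mesenchymal markers. With clusters in place of gates the ratios were 0.42 and -0.23. The Otor gate held cells of different clusters in the 2 libraries, and within cluster 12 its ratio was -0.22. With 1 library per group this difference between gates was not tested. Ier3 was higher in the cocktail library in both gates (0.97 and 0.29), whereas Fos was at 1.11 and -0.92.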

How the results depend on the processing

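The summed ratio of cocktail over vehicle (0.08) was -0.070 as a mean over cells, 0.11 with median-ratio scaling, 0.10 in cells with at least 5000 UMIs and 0.059 with gates weighted alike. It ran from 0.048 to 0.126 when each gene was left out in turn. With depth quartiles weighted alike, an alternative added after the data were seen, 1 gene passed 1.5-fold instead of 0. The fold between the highest and lowest gate (6.65 cocktail, 5.39 vehicle) was 7.18 and 5.72 with a stricter gate, and in the vehicle library 5.04 with clusters and 4.89 with medians. The Otor ratio (0.69) was 0.47 with a looser gate and, in alternatives added after the data were seen, 0.42 with clusters and 0.54 with depth quartiles weighted alike. The difference in thinned shares (-5.33 points) was -1.29 at 5000 UMIs, and the squared coefficient of variation beyond counting (1.25 cocktail, 0.939 vehicle) was 1.01 and 0.795 at 10000 UMIs. The causes were not tested. Of 80 values for single genes, 73 kept their sign, and of 46 for single gates, 43 did. No paired analysis was possible because each group is 1 library. With 1 library per group, depth limits only the counting error.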

Other observations

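Among the barcodes that were removed, 74 cocktail and 104 vehicle, the 10 genes stood at 796 and 503 CPM on 75 and 46 UMIs, below the lowest gate of kept cells in the same library. Macrophage-like cells were too few for the order of gates (8 and 5 cells) and had 1041 and 949 CPM of the 10 genes. Supporting cell-like cells of the cocktail library numbered 15 and had 4001 CPM, beside 4195 CPM in the 20 vehicle cells.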
